A study of Mus musculus with 18 samples.

Results

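Imprinted growth genes are the subject here: H19, Dlk1, Meg3, Mirg, Mest, Peg3, Plagl1, Cdkn1c, Grb10 and Ndn, 10 of the 20275 genes in the deposited count matrix. They were chosen by name, with earlier results of these data known, and all 10 were in the matrix. The series profiled bone marrow of C57B6/J mice by CITE-Seq, which reads the mRNA and a panel of surface antibodies in the same single cells. It holds 56201 cells in 9 mRNA libraries. Hematopoietic progenitors (HPs) were sorted as Lineage-Kit+ cells, with 2 libraries from E16.5 embryos and 1 each from E18.5 embryos, newborns (P0) and adults. Stroma was sorted as CD45-Ter119- cells in 1 library at each of the same 4 stages. No treatment and no allele was labelled in any group, and each library pooled cells of several mice, so the spread between animals was not measured.

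Genomic imprinting leaves 1 parental copy of a gene silent, by methylation laid down in the egg or the sperm. H19, Meg3, Mirg, Cdkn1c and Grb10 are known mainly as maternally expressed genes, whereas Dlk1, Mest, Peg3, Plagl1 and Ndn are expressed from the paternal copy. Many of them control growth before birth, and most are shut down in tissues as a mouse matures. Cdkn1c encodes p57, an inhibitor of the cell cycle that long-term hematopoietic stem cells need to stay quiescent. The reads carry no parental origin here, so the values are totals over both alleles.

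The 10 genes lie in known imprinted clusters or at single imprinted loci (positions from GENCODE vM21, mouse build GRCm38/mm10). H19 is at chr7:142575529-142578143 on the minus strand, and Cdkn1c, in the neighbouring imprinted domain of the same chromosome, is at chr7:143458339-143461050 on the minus strand. Dlk1 (chr12:109452823-109463336), Meg3 (chr12:109541001-109571726) and Mirg (chr12:109729764-109749460) follow each other on the plus strand of chromosome 12. Peg3 is at chr7:6703892-6730431 on the minus strand, and Ndn is at chr7:62346569-62350262 on the plus strand. Mest is at chr6:30723547-30748465 on the plus strand. Plagl1 is at chr10:13060504-13131694 on the plus strand, and Grb10 is at chr11:11930508-12038683 on the minus strand.

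H19, Meg3 and Mirg make long noncoding RNAs that are also precursors of microRNAs, and Mest carries a microRNA in an intron. In all, 33 mature microRNAs lie inside the members. Those of 1 hairpin of each host are shown because they are what the host transcript can give rise to besides itself. The sequences are from RefSeq, 5′ to 3′, with the seed (bases 2 to 8) in capitals, and lie in an exon of H19, Meg3 and Mirg and in an intron of Mest.
H19, mmu-miR-675-5p: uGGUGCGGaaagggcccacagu
H19, mmu-miR-675-3p: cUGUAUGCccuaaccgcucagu
Meg3, mmu-miR-770-5p: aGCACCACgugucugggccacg
Meg3, mmu-miR-770-3p: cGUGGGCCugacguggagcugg
Mirg, mmu-miR-410-5p: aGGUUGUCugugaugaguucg
Mirg, mmu-miR-410-3p: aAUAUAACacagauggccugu
Mest, mmu-miR-335-5p: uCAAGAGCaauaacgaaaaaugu
Mest, mmu-miR-335-3p: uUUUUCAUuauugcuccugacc
These 8 mature sequences have 8 different seeds. Mature microRNAs were not measured, and a count of the host gene is not a count of its microRNA.

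Imprinting acts through methylation of CG dinucleotides. The 250 bases upstream of a start site are shown for 3 members, with CG in capitals. Whether these stretches lie in the regions that carry the imprint was not examined, and no link between their CG and the levels was tested. Dlk1 and Meg3 are neighbours of opposite parental expression, and Grb10 is the member with the smallest fold between adult and P0 in whole stroma except Ndn. The Dlk1 stretch (chr12:109452573-109452822, plus strand, GRCm38) holds 8 CG, the Meg3 stretch (chr12:109540746-109540995, plus strand) 10 and the Grb10 stretch (chr11:12037421-12037670, minus strand) 40.
Dlk1: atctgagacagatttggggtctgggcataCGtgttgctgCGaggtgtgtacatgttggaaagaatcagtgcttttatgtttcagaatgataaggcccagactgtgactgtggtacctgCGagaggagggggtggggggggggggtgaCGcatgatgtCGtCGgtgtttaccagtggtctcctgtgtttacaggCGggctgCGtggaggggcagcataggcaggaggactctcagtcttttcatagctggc
Meg3: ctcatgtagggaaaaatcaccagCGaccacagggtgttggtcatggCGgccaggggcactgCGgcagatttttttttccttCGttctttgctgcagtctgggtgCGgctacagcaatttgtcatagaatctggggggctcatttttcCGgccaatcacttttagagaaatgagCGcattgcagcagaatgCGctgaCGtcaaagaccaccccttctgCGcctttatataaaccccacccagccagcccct
Grb10: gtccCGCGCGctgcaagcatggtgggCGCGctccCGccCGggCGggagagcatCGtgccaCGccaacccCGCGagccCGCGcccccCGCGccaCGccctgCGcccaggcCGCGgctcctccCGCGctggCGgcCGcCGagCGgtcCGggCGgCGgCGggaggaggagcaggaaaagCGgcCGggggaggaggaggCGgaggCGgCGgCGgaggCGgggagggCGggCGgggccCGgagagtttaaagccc
Over 32851 RefSeq promoters cut to the same length the median was 6 CG, with quartiles of 2 and 16, and 98.9% had no more CG than this Grb10 promoter. A second Grb10 promoter entry held 8 CG and a second Meg3 entry 0. Entries were found for 8 of the 10 members. Methylation was not measured in these libraries.

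The 9 libraries held 13974733 to 194892476 UMIs (unique molecule counts), with medians of 6747 to 23291.5 UMIs per cell. The summed level of 8 stromal genes (collagens and other matrix genes) was 8.87 to 45.4 CPM (counts of a gene per 1000000 UMIs of the summed cells) in HP libraries against 23912 to 76814 CPM in stroma. The E16.5 HP libraries differed in makeup: codes named for T cells held 18 of 560 cells (3.21%) in replicate 1 and 2141 of 4752 cells (45.1%) in replicate 2. Cell barcodes were shared between libraries in 2472 cells, and 5 clusters, among them the adult HP codes Mast4i and Mast4ii, had more than 25% of their cells sharing a barcode with a library that held at least 5 times more of that barcode's UMIs. Mast cell levels are given with and without those clusters.

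The 10 genes were read mainly in stroma. Every member was higher in stroma than in HPs in a fit over the 9 libraries with stage as a block (edgeR's quasi-likelihood test on counts summed per library, Benjamini-Hochberg adjusted p under 0.05), where 32.0% of the 18407 genes tested were higher in stroma and 25.8% lower. Differences ran from 4.00 ± 0.27 (log2, SE) for Grb10 to 10.67 ± 0.66 for Mest. Meg3 differed by 10.55 ± 0.61 (adjusted p = 3.03e-05), Peg3 by 9.72 ± 0.37 (adjusted p = 1.14e-05) and Cdkn1c by 8.05 ± 0.36 (adjusted p = 1.47e-05). H19 and Mirg, which had the widest errors, differed by 6.45 ± 0.98 (adjusted p = 0.00161) and 6.25 ± 1.08 (adjusted p = 0.00275). The sort set these groups, so they hold different cell types by design.

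**Figure D1:**
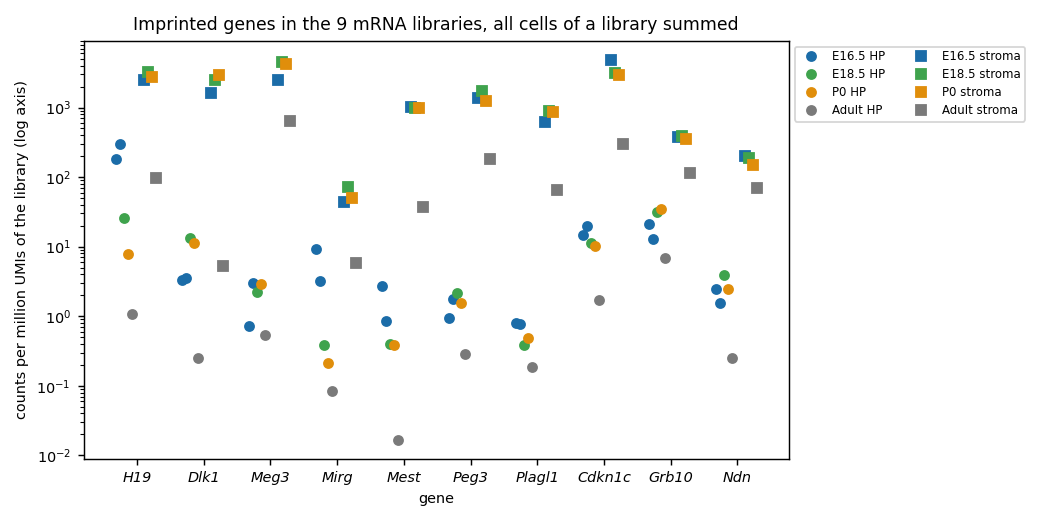
Level of each imprinted gene in every library, in CPM of all cells summed, on a log axis. Each point is 1 library, with HP and stroma apart and stages from E16.5 to adult from left to right. In stroma the 3 perinatal libraries sit above the adult one for each of the 10 genes.

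H19, Dlk1 and Cdkn1c show the size of the gap between perinatal and adult stroma. H19 had 2510 CPM at E16.5, 3280 at E18.5 and 2750 at P0 (2846 ± 394, SD, n = 3), and 95.7 in the adult. Dlk1, a transmembrane relative of the Notch ligands that holds back differentiation, had 1636, 2495 and 2960 CPM at the same 3 stages and 5.24 in the adult. Cdkn1c had 4867, 3141 and 2971 CPM, then 300.3. For each of these genes the adult library lay far outside the perinatal range, which itself spanned less than 2-fold.

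The other members had the same order in stroma. Meg3 had 2528, 4589 and 4231 CPM before the adult value of 649.7. Mest, a protein of the hydrolase fold first described in mesoderm, had 1017, 990.3 and 972 CPM, then 36.7. Peg3, a zinc finger protein, had 1370, 1706 and 1260 CPM, then 180.3, and Plagl1, also a zinc finger factor, had 627, 905 and 849, then 66.2. The narrowest gaps were those of Grb10, an adaptor that damps insulin and growth factor receptors, with 382, 392 and 349.9 CPM and then 114, and of Ndn, a growth-restraining MAGE protein, with 199, 191 and 148 and then 68.9. Mirg had the lowest counts of the 10 in perinatal stroma, with 44.4, 71.3 and 49.3 CPM and then 5.91.

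Adult stroma was then compared with perinatal stroma in a fit of 4 groups over the 9 libraries. The 3 perinatal stromal libraries stand as replicates although they differ in stage, and so do the 4 perinatal HP libraries. The error of a gene was taken over both sets together, and the lone adult libraries are assumed to vary as these do. For H19 the perinatal libraries ran from 2510 to 3280 CPM in stroma and from 7.90 to 298 CPM in HPs. In that fit 0.849% of 19323 genes were lower in adult stroma and 3.2% higher. Of the members 4 were lower: Dlk1 by -8.95 ± 1.32 (log2, SE; adjusted p = 0.0176), Cdkn1c by -3.72 ± 0.59 (adjusted p = 0.0199), Plagl1 by -3.71 ± 0.54 (adjusted p = 0.0172) and Peg3 by -3.12 ± 0.49 (adjusted p = 0.0188). The other 6 did not pass, with differences from -1.50 ± 0.44 for Ndn (adjusted p = 0.0996) to -5.02 ± 2.09 for H19 (adjusted p = 0.202). Mest, at -4.88 ± 1.17, was nearest to the threshold of these (adjusted p = 0.0589). Leaving out the E16.5 or the E18.5 stromal library left 0 members past the threshold, and DESeq2 called 9, beside 5.51% of genes lower.

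**Figure D2:**
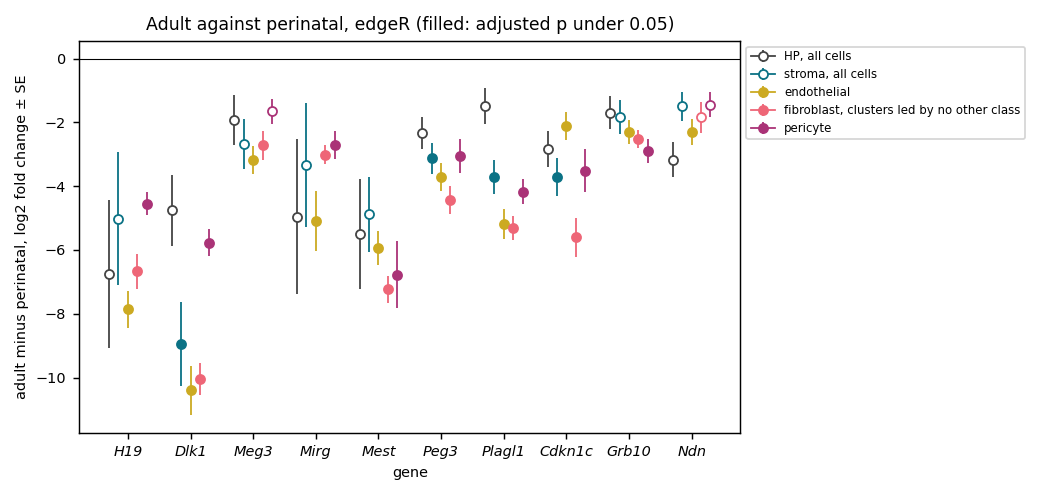
Adult minus perinatal difference (log2, with SE as bars) of each gene in whole stroma, whole HPs, endothelial cells, pericytes and the fibroblast clusters led by no other class. Filled points have an adjusted p under 0.05. Points lie below 0 for all members in stroma and in endothelial cells, fibroblasts and pericytes.

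The same difference was then taken inside single stromal classes, grouped from the deposited cluster codes, so that a change in the mix of these classes does not enter. Each of these fits again assumes that its 1 adult sum varies as the 3 perinatal ones do. Endothelial cells (71, 94 and 223 perinatal cells and 594 adult cells) had all 10 members lower in the adult, in a fit where 3.7% of 10906 genes were lower. H19 fell in them by 7.86 ± 0.57 on the log2 scale (adjusted p = 8.94e-06), from 1811, 2739 and 2515 CPM at E16.5, E18.5 and P0 to 12.2 CPM. Dlk1 was lower by -10.40 ± 0.77 (adjusted p = 8.94e-06), with 463, 518 and 788 CPM before 0.47, and Mest by -5.94 ± 0.53 (adjusted p = 4.11e-05), with 1563, 1947 and 1236 CPM before 31.2. Cdkn1c had the smallest drop there, -2.12 ± 0.43 (adjusted p = 0.00956), with 1203, 802 and 959.7 CPM before 280.0. Without the E18.5 library 6 of the 10 passed.

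RNA of chondrocytes, the most numerous perinatal cells, was also read in endothelial cells. Col2a1, the cartilage collagen, stood in endothelial cells at 0.145, 0.0465 and 0.182 of its chondrocyte level at the perinatal stages in order, and 0.0225 of it in adults. H19 stood at 0.555, 0.771 and 0.815 of the chondrocyte level at the 3 perinatal stages and Mest at 1.66, 2.44 and 1.73. For Dlk1 the ratios were 0.307, 0.219 and 0.286. The part of chondrocyte RNA in the endothelial levels was not tested.

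Fibroblasts (2563, 1637, 3867 and 3546 cells) also had all 10 members lower in the adult, where 11.0% of 16077 genes were lower. Some fibroblast codes had more markers of another class among their leading genes, so the fit was repeated without them, a choice made after the data were seen. Then 9 of the 10 were lower beside 8.06% of 15381 genes. Dlk1 was lower by -10.04 ± 0.51 (log2, SE; adjusted p = 0.00573), Mest by -7.23 ± 0.43 (adjusted p = 0.00573), H19 by -6.67 ± 0.55 (adjusted p = 0.00842) and Cdkn1c by -5.60 ± 0.62 (adjusted p = 0.0117). Ndn differed by -1.85 ± 0.48 and missed the threshold (adjusted p = 0.0523). In CPM over all codes of the fibroblast class, Cdkn1c went from 5512, 4019 and 3538 to 114, and Dlk1 from 2330, 3258 and 3797 to 7.69. The E16.5 code F4 (290 cells) carries the letter of fibroblasts but was placed with pericytes, and is not among these fibroblasts.

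Pericytes, the contractile cells around small vessels marked here by Rgs5, had 8 of 10 members lower in the adult, beside 1.74% of 11756 genes. Mest had 942, 590.1 and 249.97 CPM and then 6.01 (-6.78, adjusted p = 0.0261), and H19 had 1249, 1132 and 1195 and then 57.1 (-4.55, adjusted p = 0.00444). Adult pericytes had the highest Dlk1 of any adult stromal cluster of at least 50 cells, 45.0 CPM against 1999.8, 2046 and 2515 in perinatal pericytes (-5.77, adjusted p = 0.00315). Meg3 (-1.65, adjusted p = 0.0612) and Ndn (-1.44, adjusted p = 0.0793) did not pass. Leaving out the E18.5 library gave 0 members, beside 21 genes called in either direction, and leaving out the E16.5 library gave 10, beside 2313 genes, against 534 with all 4.

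Chondrocytes and muscle-like cells had no fit of their own, and their levels are given as folds between the P0 and adult libraries with counting intervals only. A muscle-like class was named from Myog and other muscle genes in codes whose letter P they share with pericytes after E16.5. The same 2-fold rule was met downward by 4.66% of 8768 genes in whole stroma, 7.15% in chondrocytes and 13.2% in muscle-like cells, and the median difference of all genes tested in whole stroma was 0.22 (log2, adult minus P0). All 10 members were lower by 2-fold or more in whole stroma, 8 in chondrocytes and 9 in muscle-like cells. In chondrocytes Dlk1 was 2474-fold lower (95% interval 1771 to 3573) and H19 15.7-fold lower, but Grb10 and Ndn, at 1.6-fold and 1.65-fold, were not past the rule. Muscle-like cells had 10002, 8628 and 7945 CPM of Cdkn1c at the perinatal stages and 38.4 at the adult stage, 207-fold lower than at P0 (148 to 299). Dlk1 had no count in the 143 adult muscle-like cells, at least 631-fold lower against a floor of 3 counts.

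**Figure D3:**
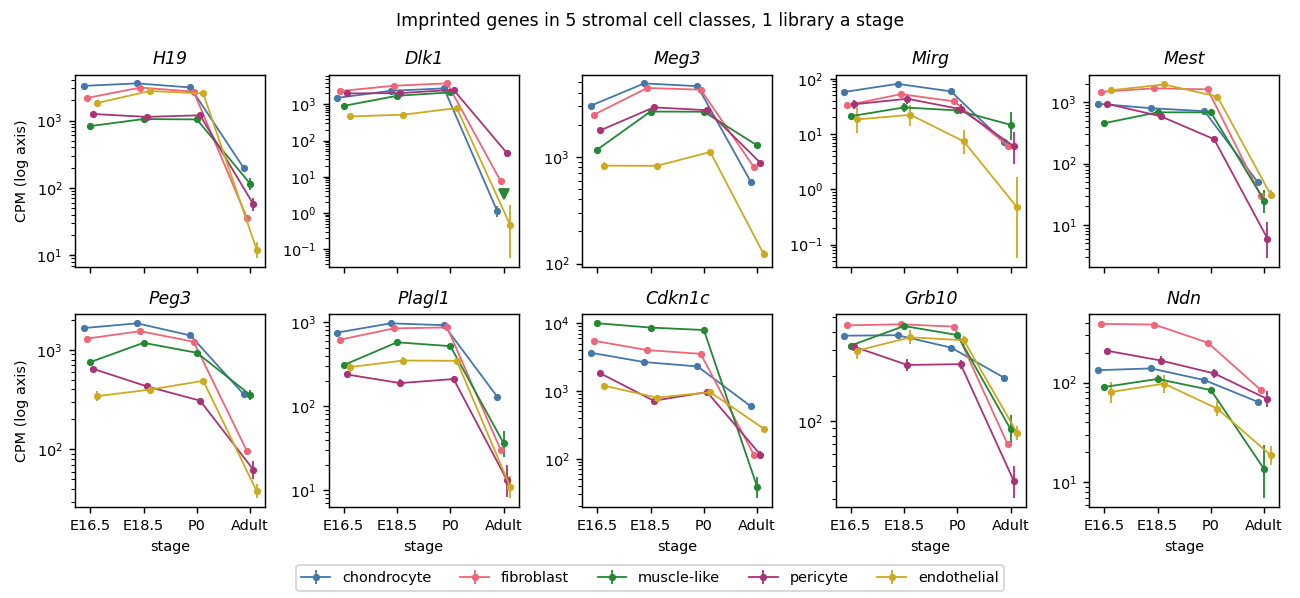
CPM of each imprinted gene in the stromal classes at the 4 stages, on a log axis, with counting intervals as bars. A downward triangle marks the level of 3 counts where a class had none. Levels are lower in the adult than at P0 for every gene in every class shown at both stages.

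Within adult muscle-like cells the noncoding RNAs of chromosome 12 fell less than their neighbour Dlk1. Meg3 had 2645 CPM at P0 and 1278 in the adult, 2.07-fold lower, and Mirg 26.8 and 14.7 CPM, 1.82-fold lower. In whole stroma there were 1.55, 1.84 and 1.43 Meg3 counts for each Dlk1 count at the perinatal stages, and 124 in adults (113 to 136). The Meg3 count per Mirg count moved less, from 57.0, 64.4 and 85.7 to 110. The chromosome 7 pair behaved likewise: 19.3, 29.1 and 22.1 H19 counts stood beside each count of Igf2, the growth factor gene next to H19, at the perinatal stages, and 382 in the adult (255 to 604), where Igf2 had 23 counts.

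Between E16.5 and P0 no member passed 2-fold in whole stroma, where 3.16% of 8030 genes were higher by that much and 1.37% lower. Dlk1 and Meg3 rose most, to 1.81 and 1.67 times their E16.5 level, and Cdkn1c went to 0.61 times. In pericytes Mest was 3.77-fold and Peg3 2.08-fold lower at P0 than at E16.5, beside 4.97% of genes. The pericytes are code F4 at E16.5 and code P2 at P0, so these folds set codes of different letters side by side. In muscle-like cells Dlk1 was 2.36-fold and Meg3 2.26-fold higher at P0, beside 6.7% of genes. These are single libraries per stage and were not tested.

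Across the 65 stromal clusters of at least 50 cells, 50 perinatal and 15 adult, Dlk1 was the cleanest marker of stage. Its lowest perinatal cluster (P0 code UD2, 136 CPM) stood above its highest adult one (code P4, 45.0 CPM). H19 and Mest were above all adult clusters in 48 of the 50 perinatal ones, Mirg and Grb10 in 44, Plagl1 and Cdkn1c in 43, Peg3 in 41, Meg3 in 38 and Ndn in 20. The highest single levels were in different cells. Cdkn1c peaked in the E16.5 muscle-like code P-2 (13349 CPM), Meg3 in the E18.5 chondrocyte code C2ii (8368 CPM), H19 in the E18.5 chondrocyte code C1ii (3988 CPM), and Dlk1 (6428 CPM) and Mest (1976 CPM) in the P0 fibroblast code F3i. Among adult clusters Cdkn1c was highest in the chondrocyte code C10, with 1157 CPM. The clusters were made from the same counts, so these levels are a description.

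Members were also counted per cell. With every cell thinned to 1000 UMIs and shallower cells left out, a perinatal stromal cell held a UMI of 5.37, 5.83 and 5.52 of the 10 members on average at the 3 stages in order, and an adult stromal cell of 0.852. Cells with none of the 10 made up 0.708%, 0.278% and 0.65% of perinatal stroma and 41.2% of adult stroma. Cdkn1c was read in 99.8%, 99.2% and 97.1% of perinatal muscle-like cells and in 2.19% of adult ones. Col2a1, which such cells should lack, was read in 18.4%, 53.0% and 68.9% of the perinatal and 24.1% of the adult ones, and the part of free RNA in the counts per cell was not tested. HP cells held a UMI of only 0.0682 to 0.226 members on average before the adult stage and of 0.0111 in the adult.

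In HPs the levels were lower but the members were not evenly low. H19 had 183 and 298 CPM in the E16.5 pair, 25.8 in the E18.5 library, 7.9 in that of P0 and 1.06 in adult HPs, or 0.309 without the adult clusters that share barcodes. Dlk1 had 3.29, 3.5, 13.2, 11.2 and 0.253 CPM in the same order. Cdkn1c had 14.6, 19.5, 11.2 and 10.1 CPM, then 1.74, and Grb10 21.4, 12.7, 31.3 and 34.9 CPM, then 6.77. Adult HPs were thus the lowest of the 5 libraries for all 4 genes, while H19 and Cdkn1c were highest at E16.5 and Dlk1 and Grb10 later. Mest, Peg3 and Plagl1 stayed at or under 2.72 CPM in every HP library.

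In the fit of adult against perinatal HPs 0.0311% of genes were lower and 0.191% higher, and 0 of the 10 members passed edgeR's quasi-likelihood test. At an unadjusted p under 0.05 there were 9, beside 2894 of the 19323 genes, and DESeq2 called 8, beside 2.91% of genes lower. Ndn came closest with -3.17 ± 0.54 (log2, SE; adjusted p = 0.0623), followed by Cdkn1c with -2.82 ± 0.56 (adjusted p = 0.0928) and Dlk1 with -4.76 ± 1.11 (adjusted p = 0.135). H19, whose 4 perinatal HP libraries ran from 7.9 to 298 CPM, had -6.77 ± 2.32 (adjusted p = 0.25). The difference between the stromal and the HP change was tested as an interaction, which 0.0% of genes passed (3800 at an unadjusted p under 0.05), and 0 members passed. At an unadjusted p under 0.05 there were 3 members, Dlk1, Plagl1 and Ndn, and of the members DESeq2 called Dlk1 alone, as lower, beside 4.16% of genes lower and 985 genes higher.

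Among HPs H19 was highest in codes named for lymphoid and mast cells. In the T cell codes it had 227, 406, 281 and 144 CPM in the 4 perinatal libraries from E16.5 on, and in the mast cell codes 277, 197, 126 and 71.3 CPM. Adult mast cell codes had 133 CPM, all of it in clusters that share barcodes, and P0 mast cell codes without such clusters had 60.5 CPM. B cell codes had 133, 86.8, 149.5 and 69.5 CPM, and 0.16 in the adult. Under the HSPC codes, named for stem and progenitor cells, it had 10.8, 75.2, 14.0 and 3.48 CPM, and 0.18 in the adult. The T cell codes held 69.9% of the H19 counts of E16.5 replicate 2, led by code TCell4 (792 CPM) and code TCell1 (729.5 CPM), clusters whose leading genes include Rag1 and Ptcra of early T cell development. Without T cell and all mast-type codes H19 had 51.7 and 68.4 CPM at E16.5 and 13.9, 4.95 and 0.479 CPM later, with the E16.5 code UD2, where stromal genes summed to 477 and 3361 CPM, still among these cells. Stromal genes summed to 1.84 CPM in TCell4 and to 0.409 CPM in code Mast1 of replicate 1, where H19 had 460.1 CPM. The part of stromal RNA and of the mix of cells in the H19 level of whole HP libraries was not tested.

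**Figure D4:**
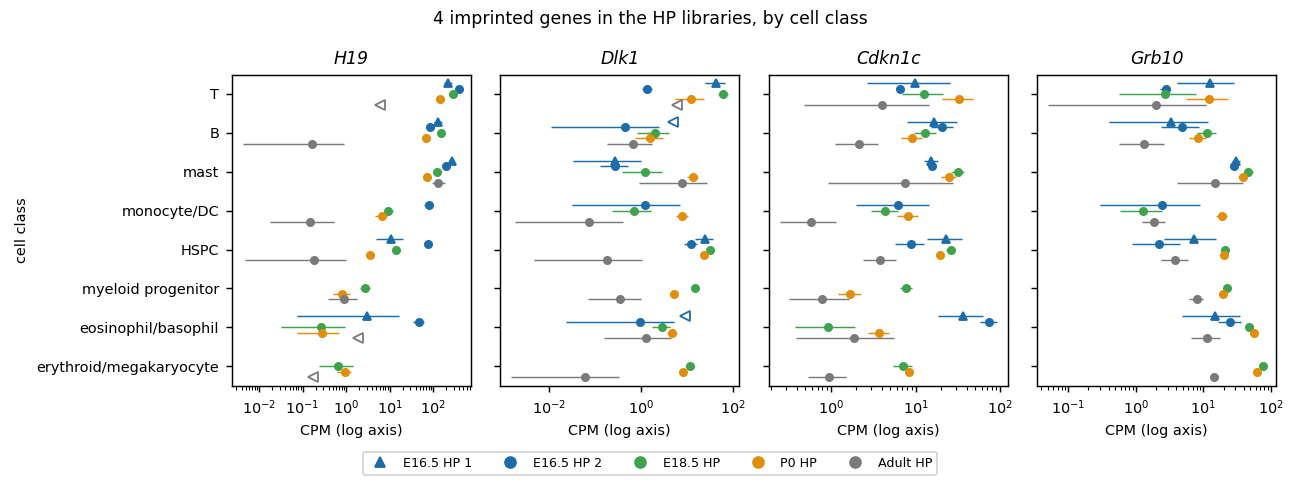
CPM of H19, Dlk1, Cdkn1c and Grb10 in HP classes of at least 10 cells in each HP library, on a log axis. Open triangles mark the level of 3 counts where the count was 0. H19 is highest in T, mast and B cell codes, and Grb10, at E18.5 and P0, in erythroid and megakaryocyte codes.

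The other HP members had other leading classes. Dlk1 had 24.0, 11.9, 31.2 and 23.7 CPM in perinatal HSPC codes and 0.18 in adult ones. Of the named classes with at least 10 cells, T cell codes alone were above this, in E16.5 replicate 1 (42.4 CPM in 18 cells) and at E18.5 (61.7 CPM in 65 cells). Grb10 led at E18.5 and P0 in erythroid and megakaryocyte codes, with 77.2 CPM at E18.5, then 63.6 and 14.5 at the later stages, and was lower in HSPC codes (21.3, 20.4 and 3.85 CPM). Cdkn1c was spread over HSPC codes (22.8, 8.74, 26.0, 19.5 and 3.85 CPM), mast cell codes (15.3, 15.8, 31.4 and 24.6 CPM before the adult, with 17.1 in place of the last without clusters that share barcodes) and the E16.5 eosinophil and basophil codes (36.0 and 72.7 CPM). Mirg was a mast cell transcript among HPs, at 15.1, 8.66, 5.71 and 5.84 CPM (5.87 at P0 without those clusters). A small cluster with stromal RNA, the E16.5 code UD2, had 22.3 CPM of Dlk1 and 107 CPM of Cdkn1c in its 29 cells of replicate 1, and 1189.8 and 4882 CPM in its 36 cells of replicate 2.

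HSPC codes, fitted alone over 5 libraries, had 0 of the 8 members tested lower in the adult beside 0.00822% of 12163 genes, with 4 at an unadjusted p under 0.05 (1181 of the genes) and Dlk1 at -6.65 ± 0.95 (adjusted p = 0.123). The E16.5 code HSPC1 and the P0 code HSPC4 were led by markers of other classes. Without them only 3 sums with 1 residual degree of freedom were left, and the lone adult library is assumed to vary as the 2 perinatal ones do, so the calls of that fit carry little weight beside the 0 over 5 libraries. It had 3 members and 0.532% of 12405 genes lower, namely Dlk1 (-7.01 ± 0.54, adjusted p = 0.00566), Cdkn1c (-2.41 ± 0.32, adjusted p = 0.0275) and Grb10 (-2.20 ± 0.31, adjusted p = 0.0327). Neutrophils had 3 members tested and mast cells 10, with 0 past the threshold in both by edgeR, where 0.0% of genes were lower in both (at an unadjusted p under 0.05 there were 1 member and 263 of 8733 genes in neutrophils, and 0 members and 714 genes in mast cells). DESeq2 also called 0 members, beside 29 genes lower in neutrophils and 0 in mast cells. However, the adult mast cells are the ones that share barcodes, mainly with E16.5 HP replicate 1.

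The antibodies give a way to choose cells that uses no transcript. Cells were gated as CD150+ and Sca-1+ but CD48- and CD135-, the surface pattern used for long-term stem cells, at an antibody level of 1 (centred log-ratio). This level was set here and is not the study's own gate, so the cells inside it are called gated cells and not stem cells. This left 10 and 28 cells in the E16.5 pair, then 33, 114 and 134 in the E18.5, P0 and adult libraries. Over 5 libraries, each split into cells inside and outside the gate, 1.83% of 13102 genes were higher inside and 2.03% lower (240 and 266 genes, or 322 and 217 with DESeq2's size factors), and Meg3 was the 1 member that passed (2.94 ± 0.71, adjusted p = 0.0423). Leaving out E16.5 replicate 1 or replicate 2 gave 5 and 4 members, all higher, beside 280 and 453 genes higher. None of the E16.5 cells inside the gate came from HSPC codes: 9 of 10 were of code Mono/Mast and 22 of 28 of T cell codes. In those libraries Meg3 had no count inside the gate and 0.725 and 3.07 CPM outside. There Cdkn1c had 5.43 and 1.75 CPM inside the gate and 14.7 and 19.7 outside. H19 had 16.3 and 654 CPM inside and 185 and 296 outside, so it was lower inside in replicate 1 and higher in replicate 2. HSPC codes gave 23 of the 33, 75 of the 114 and 29 of the 134 gated cells at the later stages. In the adult B cell codes gave more, 52 cells, and erythroid and megakaryocyte codes gave 28.

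Without the E16.5 libraries, a choice made after the data were seen, 6 of 9 members were higher inside the gate beside 4.54% of genes. Cdkn1c had 99.2 CPM inside and 10.3 outside at E18.5, 80.4 and 9.25 at P0, and 10.8 and 1.61 in the adult (2.93 ± 0.21, adjusted p = 2.8e-06). Meg3 had 44.1 and 1.79 CPM, 33.0 and 2.56, and 3.59 and 0.497 (3.73 ± 0.44, adjusted p = 0.000161). Ndn (3.06 ± 0.47, adjusted p = 0.00135), Dlk1 (1.92 ± 0.30, adjusted p = 0.00131), Grb10 (1.16 ± 0.17, adjusted p = 0.00108) and Plagl1 (2.82 ± 0.85, adjusted p = 0.0486) were higher inside as well. So the p57 gene was higher in gated cells at each of the 3 later stages, with adult levels under those of E18.5 and P0 both inside and outside.

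The gate still differed from the rest within the HSPC codes of these 3 libraries, taken without the P0 code HSPC4 that markers of another class led (23, 74 and 29 cells inside, and 365, 1319 and 600 outside), where 4.76% of 10835 genes were higher inside and 6 of 7 members were. Cdkn1c had 101 CPM inside and 22.5 outside at E18.5, 122 and 18.1 at P0, and 28.9 and 2.86 in the adult (2.47 ± 0.21, adjusted p = 2.4e-12). Grb10 had 90.2 and 18.0 CPM, 106 and 16.6, and 28.9 and 2.86 (2.50 ± 0.21, adjusted p = 4.77e-12). In the adult each of these 2 genes had only 6 counts inside and 15 outside. Meg3 had 41.8 and 9.82 CPM, 44.8 and 2.44, and in the adult 3 counts inside and 1 outside (3.24 ± 0.39, adjusted p = 4.71e-08). H19 (2.26 ± 0.37, adjusted p = 2.52e-05), Ndn (1.85 ± 0.36, adjusted p = 0.000256) and Dlk1 (0.89 ± 0.24, adjusted p = 0.0103) were also higher inside. H19 and Dlk1 had no count in the 29 adult cells inside the gate, where 3 counts would be 14.4 CPM. Stromal genes summed to 2.20, 3.36 and 19.3 CPM inside and 36.4, 5.07 and 4.01 outside.

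Because several members restrain growth, cells the authors called S or G2M (cycling) were compared with cells called G1 within each of the 9 libraries. Of 17202 genes 15.6% were lower and 14.8% higher in cycling cells (2690 and 2544 genes, or 3717 and 2119 with DESeq2's size factors), and the median of all genes was -0.12 (log2), or -0.21 with those factors. Lower in cycling cells were Meg3 (-1.71 ± 0.45, adjusted p = 0.0152), Mest (-1.42 ± 0.47, adjusted p = 0.0411), Plagl1 (-1.13 ± 0.36, adjusted p = 0.0336) and Mirg (-0.93 ± 0.32, adjusted p = 0.0461). By library (log2 of CPM + 0.1) Mest differed by -0.24, -0.03 and -0.09 in perinatal stroma and by -0.72 in adult stroma. In perinatal HPs it differed by -3.88, -2.91, -2.65 and -3.04, on 3 to 30 counts in the phase with fewer, and adult HPs had no count in G1. At E18.5 the 49 G1 cells of HSPC codes held 12 counts of Mest, 70 of Meg3 and 13 of Plagl1. Stromal genes summed to 399.8 CPM in these cells and to 4.11 CPM in cycling cells of the same codes. The part of stromal RNA in the HP differences was not tested. Cdkn1c had -0.67 ± 0.24 (adjusted p = 0.0558). Its direction differed between libraries. In whole perinatal stroma it was higher in cycling cells, with 4699 CPM in G1 and 5387 in cycling cells at E16.5, 3116 and 3237 at E18.5, and 2881 and 3575 at P0. It was lower in cycling cells of adult stroma and of every HP library. The 2 phases of perinatal stroma held different mixes of cells. At E16.5 muscle-like cells gave 384 cells in G1 and 561 cycling ones, and fibroblasts 1972 and 591. Within fibroblasts Cdkn1c was lower in cycling cells at each stage: 5814, 4169, 3631 and 114 CPM in G1 against 4739, 3545, 2890 and 23.7. In chondrocytes the order changed between stages. The part of the mix in the whole-stroma values was not tested. Leaving out either E16.5 HP library left 2 members past the threshold, Meg3 with Mirg or Meg3 with Plagl1. Without the clusters that share barcodes 2 passed as well, Meg3 (-1.60 ± 0.44, adjusted p = 0.0192) and Plagl1 (-0.88 ± 0.30, adjusted p = 0.0472).

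**Figure D5:**
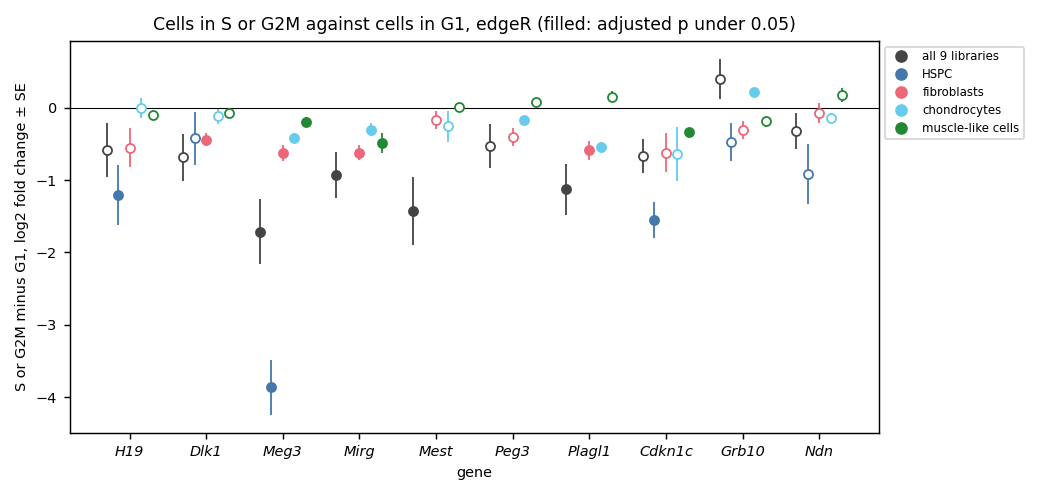
Cycling minus G1 difference (log2, with SE as bars) of each imprinted gene in edgeR fits. The fits are of all 9 libraries, HSPC codes, fibroblasts, chondrocytes and muscle-like cells. Filled points have an adjusted p under 0.05. Meg3 lies under 0 in each fit. By library, not drawn here, its difference (log2 of CPM + 0.1) ran from -0.67 to -0.39 in stroma and from -4.29 to -2.20 in HPs.

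Within HSPC codes, in fits added after the data were seen, 12.5% of 10048 genes were lower in cycling cells and 3 of the 6 members tested were. Cdkn1c (-1.55 ± 0.25, adjusted p = 0.00085) had 50.04 CPM in G1 and 4.04 in cycling cells of E16.5 replicate 1, 12.3 and 7.83 in replicate 2, 73.3 and 22.1 at E18.5, 58.7 and 17.3 at P0, and 4.90 and 3.55 in the adult. Meg3 (-3.86 ± 0.38, adjusted p = 3.41e-05) had 90.0 and 4.65 CPM at E18.5 and 31.1 and 1.82 at P0. H19 (-1.21 ± 0.41, adjusted p = 0.0436) had 52.7 and 10.7 CPM at E18.5 but 60.1 and 79.1 in E16.5 replicate 2. Cdkn1c was thus nominally higher in G1 in each of the 5 libraries, but its counting intervals overlapped in E16.5 replicate 2 (8 and 20 counts) and in the adult (6 and 15 counts). These HSPC codes include the E16.5 code HSPC1 and the P0 code HSPC4, which markers of other classes led. The G1 cells of these codes at E18.5 also had stromal genes at a summed 399.8 CPM against 4.11 in cycling cells, while the P0 sums were 7.19 and 4.28, and the part of this RNA in the E18.5 values was not tested.

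Stromal classes gave smaller differences for the members that passed. In chondrocytes, where 15.5% of genes were lower and 14.8% higher in cycling cells, 4 members were lower (Plagl1, Meg3, Mirg and Peg3) and Grb10 was higher. Plagl1 had 769.9 CPM in G1 and 638 in cycling cells at E16.5, 1024 and 732 at E18.5, 950.1 and 652 at P0, and 137 and 94.2 in the adult (-0.53 ± 0.06, adjusted p = 0.000307). Grb10 had 371 and 406 CPM, 364 and 441, 304 and 396, and 186 and 241 (0.21 ± 0.06, adjusted p = 0.0208). The order held in all 4 libraries for both genes. Cdkn1c did not pass in chondrocytes, and its order changed between stages. It had 3760 CPM in G1 and 2994 in cycling cells at E16.5, 2688 and 2613 at E18.5, 2274 and 2695 at P0, and 698 and 132 in the adult. In fibroblasts (8.96% of genes lower) Meg3 (-0.62 ± 0.11, adjusted p = 0.00813), Dlk1 (-0.44 ± 0.09, adjusted p = 0.0149), Mirg and Plagl1 were lower. In muscle-like cells (13.4% lower) Cdkn1c fell by 0.34 ± 0.03 on the log2 scale (adjusted p = 8.4e-06), from 11619, 9674 and 8622 CPM in G1 to 9037, 7737 and 7140 in cycling cells at the perinatal stages, with Mirg and Meg3 lower too.

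Across the 138 clusters of at least 50 cells in both compartments, each member's nearest gene was taken by Pearson r of log2(CPM + 1). These r describe clusters that share libraries and compartments. H19 (r = 0.86) and Dlk1 (r = 0.94) were nearest to Igf2, and in the 65 stromal clusters alone this remained so (r = 0.93 and 0.95). Peg3 was nearest to Plagl1 (r = 0.98), and Meg3 to Peg3 (r = 0.97). In stroma alone Meg3 was nearest to Mirg (r = 0.96). Cdkn1c and Mest were nearest to Capn6 (r = 0.96 and 0.97), Ndn to Meg3 (r = 0.96), Mirg to B830012L14Rik (r = 0.92) and Grb10 to Itm2a (r = 0.89). In the 73 HP clusters alone Cdkn1c was nearest to Mfap2 (r = 0.82), as was Ndn (r = 0.82).

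A wider list of 39 further imprinted genes, also chosen with earlier results of these data known, had 36 in the matrix. Of these 21 were higher in stroma, beside 32.0% of all genes, and 3 lower (Ascl2, Tspan32 and Copg2), beside 25.8%. In whole adult stroma 11 of the 36 were lower, beside 0.849% of genes, among them Igf2, with 130.2, 113 and 125 CPM at the perinatal stages and 0.25 in the adult (-9.05 ± 1.91, adjusted p = 0.0428), and Zim1, a neighbour of Peg3, with 115, 147 and 134 CPM and 4.02 (-5.17 ± 0.64, adjusted p = 0.0119). Usp29, of the same domain, was lower by -4.88 ± 0.45 (adjusted p = 0.0049). In HPs 0 of the 36 passed edgeR's test, with 7 at an unadjusted p under 0.05, beside 2894 of 19323 genes. Within classes 9 of 23 were lower in adult endothelial cells (3.7% of all genes), 21 of 34 in fibroblasts (11.0%) and 5 of 27 in pericytes (1.74%). In fibroblasts 3 of the 34 were higher in the adult, where 14.3% of all genes were: Slc22a18, Trappc9 and Dio3, the deiodinase gene that lies in the Dlk1 and Meg3 cluster (1.64 ± 0.34, adjusted p = 0.0204). Of the list 4 genes were lower in cycling cells (Igf2, Sgce, Slc22a18 and Zrsr1) and 2 higher (Commd1 and Calcr), of 36 tested, beside 15.6% and 14.8% of all genes. Inside the gate 3 of 23 were higher and 2 lower (Mcts2 and Ddc), beside 1.83% and 2.03% of all genes. The higher ones were Phlda2, a growth restrainer of the Cdkn1c domain (2.39 ± 0.48, adjusted p = 0.0215), Zdbf2 (3.01 ± 0.73, adjusted p = 0.0419) and Ppp1r9a.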

How the data were processed

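Mouse bone marrow cells were sequenced by the authors on the 10X Genomics platform (3' v3.1 chemistry) with TotalSeq-A antibodies. The authors deposited raw UMI counts per gene and cell, raw antibody counts per cell, and a table with each cell's library, stage, compartment, called cell cycle phase and cluster code. Per the submitters' processing notes the tools were Cell Ranger 3.1.0, R 4.0 and Seurat 3.1.5 on build mm10. The authors removed cells of few UMIs or high mitochondrial share, and in each sample the cells with the most genes or UMIs as putative doublets. They kept genes seen in enough cells. In the deposited table the mitochondrial share is a fraction from 0 to 1, and hscScore is a score given for HP cells only. Of the deposited columns, 6 were not mapped to a value here, and neither share nor score was used.

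The members and the wider list were chosen with earlier results of these data known. The 10 members could be named in every comparison, as could genes of the wider list that passed there, and for each member the genes nearest by Pearson r over clusters of at least 50 cells, among genes with at least 100 CPM in a cluster. Libraries were grouped by their labels. Counts were summed per library, or per library and class, phase or gate, and given as CPM of the summed UMIs, with exact Poisson 95% intervals. Shares of cells were taken after thinning to 1000 UMIs. These intervals cover counting error only. Cell classes follow the deposited code names, except that muscle-like cells and pericytes were told apart by their markers. The E16.5 code F4 was placed with pericytes in this way. Code CF1, with 371 cells at E18.5 and 1095 at P0, was counted with chondrocytes. The P0 code CF2 (1098 cells) was in neither the chondrocyte nor the fibroblast class. Clusters whose leading genes were markers of another class are given where they bear on a result. No further doublets were called here. A class entered a fit with at least 10 cells in a library.

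Sums were tested with edgeR 4.0.16 (TMM, default filter on low counts, quasi-likelihood F test) with limma 3.58.1 in R 4.3.3, and p-values were adjusted by Benjamini-Hochberg over all genes tested, with a threshold of 0.05. The compartment fit had 4 residual degrees of freedom, the adult fit 5, the stromal classes 2, the phase fit 8 and the gate fit 4. The gate fits without the E16.5 libraries had 2. The SE given with an edgeR difference is its absolute log2 value divided by the square root of the F statistic. Replicates are pools of mice, so p-values measure the spread between these libraries. Antibody counts were put on a centred log-ratio per antibody and library. Stage folds used a 2-fold rule among genes reaching 10 CPM in 1 of the pair and 50 counts over both. Alternatives were DESeq2 1.42.0, its size factors, no filter, cells with at least 1000 UMIs, other gate levels and leaving out libraries (for phase and gate, each E16.5 HP library alone). Added after the data were seen were the fits without clusters that share barcodes, by marker-led clusters, by code letters, of phase within classes, and of the gate without E16.5. The code of the fits was run on simulated counts with known changes, drawn around 1 mean per gene shared by all libraries. Such counts hold no stage differences among perinatal libraries, so this run cannot show how the fits behave with them. Tables were made with Python 3.11.15, numpy 2.4.6, pandas 2.3.3 and scipy 1.17.1, and figures with matplotlib 3.10.9.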

Additional observations from a re-analysis of the deposited data

Results flagged for a closer look

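Gaps between single libraries were examined for the level of each member in perinatal HPs, its cycling minus G1 difference (log2 of CPM + 0.1) in stroma and in HPs, and its difference across the antibody gate, 40 groups in all. In 3 of them 1 library stood apart from the others by Dixon's criterion, which flags about 1 group in 20 by chance. All 3 were the adult stromal library. Dlk1 was lowest there, at -2.94, on only 4 counts in the cycling cells, and Cdkn1c was lowest, at -1.36. Plagl1 was highest there, at 0.39. The phases of adult stroma held different mixes of cells, with 937 chondrocytes in G1 and 157 cycling, against 3527 and 19 fibroblasts. Within adult chondrocytes Plagl1 was lower in cycling cells (137 CPM in G1 and 94.2), as was Cdkn1c (698 and 132). The part of the mix in these gaps was not tested.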

How the results depend on the processing

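Every setting kept all 10 members higher in stroma, and leaving out 1 library at a time gave 10 to 10 members and 7566 to 10920 genes past the threshold. Of the results counted over genes or members, 210 alternative values stayed within 1.5 times the main count and 83 did not. In the adult comparisons 1 adult library stands against perinatal ones of different stages. With DESeq2, members called went from 4 to 9 in stroma (genes from 783 to 2390), from 0 to 8 in HPs (43 to 1038) and from 0 to 1 for the interaction (0 to 1789). Leaving out 1 library gave 0 to 6 members and 30 to 1456 genes in stroma, 0 to 1 and 4 to 64 in HPs (the 1 without E16.5 HP replicate 2), and 0 to 0 and 0 to 1 for the interaction. With cells of at least 1000 UMIs 1 member passed in HPs and 1 gene for the interaction, which also had 1 gene with DESeq2's size factors and 1 without the clusters that share barcodes, a setting that gave 66 genes in HPs.

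Within classes, leaving out 1 library gave 6 to 10 members and 243 to 1394 genes in endothelial cells (6 without the E18.5 library), 8 to 10 and 1298 to 5458 in fibroblasts, 0 to 10 and 21 to 2313 in pericytes, 0 to 0 and 0 to 19 in HSPC codes, 0 to 0 and 0 to 3 in mast cells and 0 to 0 and 0 to 1546 in neutrophils. Without a filter on low counts there were 1810 genes in endothelial cells (958 in the main fit), 1328 in pericytes (534), 42 in neutrophils (6), 20 with 1 member in HSPC codes (5 with 0) and 3 in mast cells (0, with 714 at an unadjusted p under 0.05). DESeq2 gave 598, 846, 42, 94 with 1 member, and 66. Neutrophils had 0 genes with DESeq2's size factors, and mast cells 3 with cells of at least 1000 UMIs. With clusters led by no other class there were 2694 genes in fibroblasts (4068) and 184 genes with 3 members in HSPC codes. Mast cells could not be fitted without the clusters that share barcodes, since no adult mast cells were left.

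For phase, members past the threshold went from 4 to 2 without the clusters that share barcodes, in stromal libraries alone and within mast cells. Genes went from 5234 to 2115 in stroma alone, 2794 within fibroblasts and 2904 within HSPC codes. Without either E16.5 HP library there were 2 to 2 members and 4385 to 4401 genes. Within muscle-like cells Mest (0.011) and Plagl1 (0.15) had the opposite sign (log2). The cause was not tested. For the gate, members went from 1 to 2 without a filter, 4 at an antibody level of 1.5, 6 without both E16.5 libraries and 6 within HSPC codes, with 881, 999, 1660 and 1068 genes against 506, and leaving out 1 E16.5 library gave 4 to 5 members and 615 to 944 genes. A total without mitochondrial, ribosomal, Gm42418 and hemoglobin genes changed no count of members past 2-fold by over 1.5 times, and gave 761 genes in whole stroma (409), 1329 in fibroblasts (753), 879 in chondrocytes (560), 835 in pericytes (554) and 1794 in muscle-like cells (1085). The stromal class with the largest share of cells was the same for 19 of 40 genes and stages without thinning.

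No paired analysis was possible because only the E16.5 HP group carries replicate numbers above 1, so no groups share a pair of replicate numbers. The stage block of the compartment fit and the library block of the phase and gate fits use the stage and the library itself, not those numbers. The adult fit, with its interaction, had no stage block, although stroma and HPs share each stage. With 1 library at most stages the difference between neighbouring stages has no error from animals, and members at under 1 CPM in HPs rest on few counts.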
